A study of Mus musculus with 12 samples.

Results

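Kit, its ligand gene Kitl and the genes Cdh13, Lhx6 and Thbd were examined in mouse liver sinusoidal endothelial cells with activated Notch1. The genes were taken as a list, 4 as endothelial landmarks of the pericentral zone of the liver lobule that are not Wnt genes, and Kitl as the ligand of Kit. These 5 genes had 1 probe set each among the 25428 probe sets of the array. The NICD-OE-HEC group held 6 samples from mice that carried a Clec4g-Cre transgene and a Rosa26 allele for the Notch1 intracellular domain followed by GFP. In these mice the Cre is driven by regulatory sequence of Clec4g, a lectin gene of sinusoidal endothelium. The Control group held 6 samples labelled Ctrl, whose alleles the sources used here do not give, nor do they give the strain or age of any mice. Every sample was a pool of livers from 3 mice, from which cells were selected with beads against CD146 and hybridized to 1 array.

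Blood in a liver lobule runs from the portal field to the central vein, and endothelial cells along that path express different genes. Kit is a receptor tyrosine kinase that dimerizes when it binds stem cell factor, the product of Kitl, and signals through PI3 kinase, Src family kinases and STAT5. It is best known from blood progenitors, mast cells, germ cells and melanocytes, and in mouse liver it is also found on endothelium near the central vein. Cdh13 encodes T-cadherin, a cadherin held in the membrane by a lipid anchor that binds adiponectin. Lhx6 encodes a LIM homeodomain transcription factor known from cortical interneurons. Thbd encodes thrombomodulin, an endothelial receptor that turns thrombin towards activation of protein C.

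The sequences upstream of the Kit and Kitl starts are shown because the receptor fell with activated Notch and the ligand gave no call. They are the 250 bases before a transcription start in RefSeq's GRCm38.p6 annotation, read 5′ to 3′ on the gene's strand, which is + for both. Kit, Kitl and Lhx6, 3 of the 5 genes, matched that table by symbol. The Kit window lies at chr5:75574737-75574986 and the Kitl window at chr10:100015571-100015820. Capitals mark TGGGAA, the core letters bound by RBPJ, the DNA-binding partner of the Notch intracellular domain.
Kit: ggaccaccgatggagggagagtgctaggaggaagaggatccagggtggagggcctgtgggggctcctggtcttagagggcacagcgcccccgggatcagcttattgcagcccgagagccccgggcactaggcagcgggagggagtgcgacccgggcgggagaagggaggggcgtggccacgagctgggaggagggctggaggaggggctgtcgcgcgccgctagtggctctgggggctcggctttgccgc
Kitl: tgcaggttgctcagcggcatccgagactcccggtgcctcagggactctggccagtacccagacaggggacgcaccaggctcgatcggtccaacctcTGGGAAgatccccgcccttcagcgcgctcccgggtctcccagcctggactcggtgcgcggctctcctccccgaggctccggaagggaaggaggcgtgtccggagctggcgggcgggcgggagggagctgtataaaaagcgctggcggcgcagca
Searched on both strands, the Kit window held neither TGGGAA nor CACGTG, an E-box of the kind that HES and HEY repressors can bind. The Kitl window held TGGGAA 1 time, beginning 154 bases before the start, and no CACGTG. An E-box can share its last letters with the RBPJ core, which did not occur in these windows. Of 32851 RefSeq windows of this length, 21.6% held TGGGAA and 6.0% held CACGTG. G and C made up 70.8% of the Kit window and 69.2% of the Kitl window. The window of the other Kit start in the same table, chr5:75574741-75574990, also held neither motif, but it covers nearly the same bases. The windows of 3 Lhx6 starts held neither motif. These matches describe letters only, and binding was not measured.

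The values are log2 expression from RMA, with an array median of 3.67, below which a value cannot be separated from background here. Notch1, whose intracellular domain the transgene carries, was at 8.87 ± 0.24 in NICD-OE-HEC and 8.68 ± 0.26 in Control (SD, n = 6 each, adjusted p = 0.486), but the part of the gene its probe set covers is not known here, so this checks nothing. Hey1, a repressor induced by Notch, rose by 2.70 (SE 0.16, adjusted p = 4.15e-08), and 7 of 8 listed Notch target genes rose, with a median of 0.94. The exception was Hey2 (adjusted p = 0.137), which lay below the array median in Control, as did Heyl. The Heyl call (adjusted p = 0.0231) was lost without Control 3, 4 or 5 or NICD-OE-HEC 2, 4 or 6. Endothelial markers were high in every sample, their mean over 9 genes running from 10.35 to 10.48 in NICD-OE-HEC and from 10.47 to 10.65 in Control. Of these 9 genes 3 fell, the receptor genes Kdr (-0.60) and Tek (-0.59) and Egfl7 (-0.36), and Pecam1 rose by 0.33. The Egfl7 call was lost without any single array except Control 4 or NICD-OE-HEC 2 or 5 (-0.37 to -0.30 in those fits), the Pecam1 call without Control 1, 3 or 6 or NICD-OE-HEC 3, 4 or 5 (0.29 to 0.33), and both without Control 2 and NICD-OE-HEC 4 together (-0.28 and 0.30). Of 8 markers of sinusoidal endothelium 7 fell and Lyve1 rose (0.83), with a median of -0.62. Stab2 fell the most (-1.32), and Clec4g, whose regulatory sequence drives the Cre, fell as well (-0.81). Markers of other cells and of handling moved with the groups. The mean of 7 neutrophil markers ran from 4.73 to 7.15 in NICD-OE-HEC and from 3.05 to 4.66 in Control (5 higher, 0 lower, Ly6g below the array median in each group). For 8 immediate early genes that tissue dissociation can raise, it ran from 7.87 to 9.80 in NICD-OE-HEC and from 6.34 to 8.05 in Control (7 higher, 0 lower), and for 8 hepatocyte markers from 7.08 to 8.31 in NICD-OE-HEC and from 6.52 to 7.57 in Control (4 higher, 0 lower). The hepatocyte count ran from 2 to 5 with single arrays left out, changing by over 1.5 times without Control 3, 4, 5 or 6 or NICD-OE-HEC 1, 2, 3 or 4. Of 7 Kupffer cell markers limma called 0 (1 higher at an unadjusted p under 0.05), with a mean from 7.85 to 9.41 in NICD-OE-HEC and from 7.77 to 9.12 in Control, although Adgre1 was called as higher without Control 1 or 2 (1.00 and 0.93) or NICD-OE-HEC 5 (1.06), without the dimmest 50 percent of probe sets and with array weights. The part of these markers in the results below was not tested. Control replicate 2 and NICD-OE-HEC replicate 4 stood apart on the second principal component, at -48.5 and -30.3 against -8.51 to 22.3 for the other arrays, so values without both are given.

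Of the 5 genes, Kit, Cdh13 and Lhx6 fell in NICD-OE-HEC, and Thbd and Kitl gave no call. A call was an adjusted p under 0.05 in limma over all probe sets, which 5.59% of all probe sets passed as lower and 4.89% as higher. The median difference was -0.77 over the 5 genes and -0.01 over all probe sets. Expression of 2 of the 5, Kit and Cdh13, did not overlap between the groups, as for 6.68% of all probe sets (3.7% as lower in NICD-OE-HEC). The two-sided exact permutation p over the 12 arrays was 0.00216 for Kit and for Cdh13, the smallest it can be, and 0.00649 for Lhx6. All 5 lay above the array median on every array. In these bulk samples, fewer cells of a type and less RNA per cell cannot be told apart.

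Kit had the largest difference of the 5 genes. Its log2 values were 6.74 at the lowest, 6.90 at the median and 7.10 at the highest in NICD-OE-HEC, against 9.28, 9.57 and 9.69 in Control. The lowest Control array lay 2.18 above the highest NICD-OE-HEC array, so the groups were far apart relative to the spread within each. The means were 6.90 ± 0.14 in NICD-OE-HEC and 9.53 ± 0.15 in Control (SD, n = 6 each). Kit was thus 6.21-fold lower in NICD-OE-HEC (log2 difference -2.63, SE 0.10, 95% interval -2.84 to -2.43, limma adjusted p = 1.87e-10). Among all 25428 probe sets, 7 had a more negative difference and 1 had a more negative moderated t. Within NICD-OE-HEC the arrays differed by at most 0.36, from replicate 2 at the low end to replicate 6 at the high end. Without Control replicate 2 and NICD-OE-HEC replicate 4 the difference was -2.70.

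Mast cells and blood progenitors also carry Kit, and limma called 0 of the markers listed for them as lower. Most of these markers lay below the array median in each group, where a fall cannot be measured. The part of these cells in the Kit level was not tested. Of 8 mast cell markers limma called 0 (0 also at an unadjusted p under 0.05), and 7 of them, among them Cpa3, Cma1 and Ms4a2, lay below the array median in each group. The 1 that did not was Hdc, which makes histamine, at 7.18 ± 0.56 in NICD-OE-HEC and 7.49 ± 0.40 in Control (SD, n = 6 each, adjusted p = 0.518). The mean over the 8 genes ran from 2.52 to 2.71 in NICD-OE-HEC and from 2.48 to 2.69 in Control. Of 8 progenitor markers 1 rose, Cd48, a surface protein that other leukocytes carry too (0.88, adjusted p = 0.00264), and 0 fell. That list's mean ran from 3.47 to 3.60 in NICD-OE-HEC and from 3.26 to 3.55 in Control, with Mpo, Elane, Ctsg, Myb and Flt3 below the array median in each group. Of 8 markers of natural killer and innate lymphoid cells limma called 0 (0 at an unadjusted p under 0.05), with a mean from 3.31 to 4.08 in NICD-OE-HEC and from 3.37 to 3.79 in Control. Without NICD-OE-HEC replicate 4, 1 of those 8 was called as higher, the granule protease Gzmb, which averaged below the array median over the 6 Control arrays.

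Kitl, whose product is made both as a membrane protein and as a shed form, gave no call. Its log2 values were 7.15, 7.39 and 7.55 at the lowest, median and highest in NICD-OE-HEC, against 7.09, 7.19 and 7.50 in Control. The groups overlapped over most of their range. The means were 7.36 ± 0.14 in NICD-OE-HEC and 7.23 ± 0.15 in Control (SD, n = 6 each), a log2 difference of 0.13 (SE 0.10, adjusted p = 0.521). The 95% interval of the difference ran from -0.08 to 0.33, and the exact permutation p, two-sided, was 0.165. A fall of the size seen for Kit lies outside that interval. Stellate cells are another source of Kitl in liver. Of 9 stellate cell and fibroblast markers 3 rose, Col1a1 (2.49), Col3a1 (2.11) and Rgs5 (1.09), 1 fell, Lrat (-0.75), and 5 gave no call. The mean of these markers ran from 5.89 to 6.36 in NICD-OE-HEC and from 4.94 to 6.19 in Control, and hides these opposite moves. Their part in the Kitl level was not tested. Among 4 proteases known to release Kit ligand from the membrane, Mmp9 rose by 1.72 (SE 0.31, adjusted p = 0.00145). Neutrophils are rich in this gelatinase, and 5 of 7 neutrophil markers also rose in NICD-OE-HEC. Their part in the Mmp9 level was not tested. Adam17, the main sheddase of many membrane proteins, differed by 0.08 (adjusted p = 0.676). Mmp25 averaged 3.73 ± 0.48 in NICD-OE-HEC and lay below the array median in Control (3.18 ± 0.20, SD, n = 6 each, limma adjusted p = 0.0789), so the size of its difference cannot be measured. It was called as higher without NICD-OE-HEC replicate 2 or 3.

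**Figure D1:**
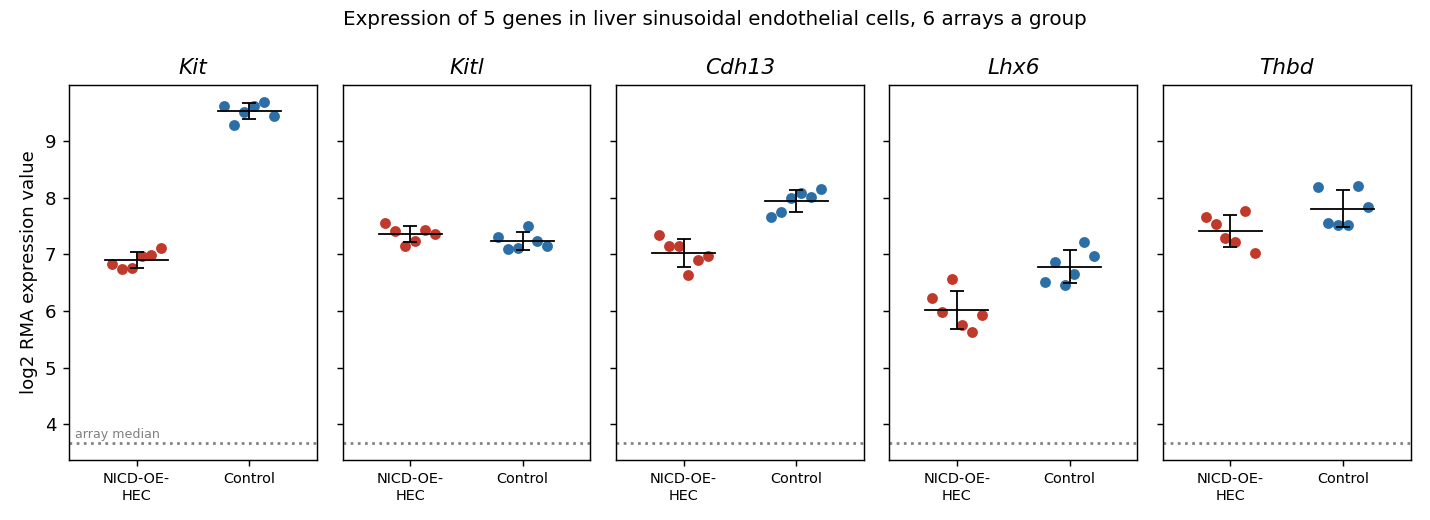
Log2 RMA expression of Kit, Kitl, Cdh13, Lhx6 and Thbd on each array (vertical axis), with NICD-OE-HEC arrays in red and Control arrays in blue, horizontal bars at the mean and whiskers of 1 SD (n = 6 each). The Kit groups are separated by 2.18 and the Cdh13 groups by 0.33, the other 3 genes overlap, and all points lie above the dotted array median of 3.67.

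Cdh13, the T-cadherin gene, fell by less. Its log2 values were 6.63, 7.06 and 7.34 at the lowest, median and highest in NICD-OE-HEC, against 7.66, 8.01 and 8.14 in Control. The groups did not overlap and were separated by 0.33. NICD-OE-HEC replicate 4 was the lowest array and Control replicates 1 and 2 were the lowest of their group. The means were 7.03 ± 0.25 in NICD-OE-HEC and 7.94 ± 0.19 in Control (SD, n = 6 each), 1.89-fold lower in NICD-OE-HEC (log2 difference -0.92, SE 0.12, 95% interval -1.18 to -0.65, adjusted p = 1.34e-04). The difference was -0.88 without Control replicate 2 and NICD-OE-HEC replicate 4.

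Lhx6 fell with a wider spread between arrays. Its log2 values were 5.63, 5.96 and 6.56 at the lowest, median and highest in NICD-OE-HEC, against 6.47, 6.76 and 7.22 in Control. The groups overlapped because NICD-OE-HEC replicate 3, at 6.56, lay above Control replicates 1 (6.51) and 3 (6.47). The other NICD-OE-HEC arrays lay below every Control array. The means were 6.01 ± 0.34 in NICD-OE-HEC and 6.78 ± 0.29 in Control (SD, n = 6 each), 1.70-fold lower in NICD-OE-HEC (log2 difference -0.77, SE 0.16, 95% interval -1.12 to -0.42, adjusted p = 0.00575). Without Control replicate 2 and NICD-OE-HEC replicate 4 the difference was -0.70 (adjusted p = 0.0245).

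Thbd, the thrombomodulin gene, was lower on average without passing the threshold. Its log2 values were 7.02, 7.42 and 7.76 at the lowest, median and highest in NICD-OE-HEC, against 7.52, 7.70 and 8.21 in Control. The groups overlapped, and Control replicates 1 (8.18) and 5 (8.21) lay above the rest of their group, which ran from 7.52 to 7.84. The means were 7.41 ± 0.28 in NICD-OE-HEC and 7.81 ± 0.33 in Control (SD, n = 6 each), a log2 difference of -0.39 (SE 0.16, adjusted p = 0.153). The 95% interval, -0.73 to -0.05, left out 0 before adjustment (unadjusted p = 0.0266), and a two-sided exact permutation test gave p = 0.0606. The missed threshold therefore does not show that Thbd kept its level. Thrombomodulin is also made by some leukocytes, whose markers are given above, and their part was not tested.

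Most genes that act below Kit gave no call, and of those called more fell than rose. Of 27 measured adaptors, kinases, phosphatases and transcription factors 2 rose, 6 fell and 19 gave no call, with a median of -0.03. Over all probe sets, 5.59% were called as lower and 4.89% as higher. Fyn, a Src family kinase, fell by 0.54 (SE 0.07, adjusted p = 1.51e-04). Jak2, the kinase ahead of STAT5 in cytokine signalling, fell by 0.49 (SE 0.07, adjusted p = 3.36e-04) and Stat5b by 0.38 (SE 0.09). Dok1, an adaptor that dampens tyrosine kinase signalling, fell by 0.64 (SE 0.14, adjusted p = 0.00682). The kinase Src rose by 0.41 (SE 0.10, adjusted p = 0.0150). Sh2b2 and Plcg1 fell by 0.64 and 0.45 and Ptpn6, a phosphatase that limits Kit signalling and is abundant in leukocytes, rose by 0.67, but these 3 calls were lost when single arrays were left out. That held for 9 of the 12 arrays for Sh2b2 (-0.68 to -0.49), all but Control 2 and NICD-OE-HEC 1 for Plcg1 (-0.47 to -0.40), and Control 3, 4, 5 and 6 and NICD-OE-HEC 1, 2 and 3 for Ptpn6 (0.57 to 0.66), the ranges covering the fits that lost the call. For Sh2b2 the exceptions were Control 2 and NICD-OE-HEC 1 and 5.

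Transcription factors known to act at the Kit gene in blood and pigment cells gave no call. Of 11 measured, limma called 0 (2 higher and 1 lower at an unadjusted p under 0.05), and 0.39 for Lyl1 was the widest difference (SE 0.13, adjusted p = 0.0746). Gata2 and Tal1, which drive Kit in blood cells, differed by 0.14 (adjusted p = 0.450) and -0.09 (adjusted p = 0.687). Lyl1 was called as higher without NICD-OE-HEC replicate 4 (0.45), without it and Control 2 together (0.48), without the dimmest 50 percent of probe sets and with array weights. Ets2 differed by -0.29 (adjusted p = 0.0842) and was called as lower without NICD-OE-HEC replicate 6 (-0.34), without the dimmest 50 percent of probe sets, with an intensity trend and with array weights. Gata1, Myb and Runx1 stood below the array median on average in each group, so a fall of these genes cannot be measured.

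Among other receptors of the class of Kit and their ligands, 2 of 11 genes rose and 2 fell, all of them ligands, with a median of -0.04 (4 higher and 2 lower at an unadjusted p under 0.05). The receptor Pdgfrb, which mural and stellate cells carry, was at 4.79 ± 0.32 in NICD-OE-HEC and 4.21 ± 0.38 in Control (SD, n = 6 each), a difference of 0.58 just short of the threshold (SE 0.18, limma adjusted p = 0.0531). It was singled out after its values were seen, and was called as higher without Control 5 (0.71) or NICD-OE-HEC 3 (0.66), without the dimmest 25 or 50 percent of probe sets and with array weights. Pdgfb, which recruits mural cells, rose by 1.22 (SE 0.19, adjusted p = 3.78e-04) and Pdgfc by 0.81 (SE 0.15). Flt3l, the ligand of Flt3, fell by 0.53 (SE 0.10, adjusted p = 0.00233). Csf1, the macrophage growth factor, fell by 0.75, a call at adjusted p = 0.0466 that was lost without any single array except Control replicate 1 or NICD-OE-HEC replicate 5 (-0.78 to -0.63 in the fits that lost it), without Control 2 and NICD-OE-HEC 4 together (-0.78) and with an intensity trend.

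Relatives and partners of Cdh13 and Lhx6 mostly gave no call. Among 20 other cadherins 2 rose and 0 fell in limma (4 higher and 0 lower at an unadjusted p under 0.05), and 13 lay below the array median in each group. The risers were Cdh1, the epithelial cadherin (1.10, SE 0.20, adjusted p = 0.00150), and Cdh6 (0.78, SE 0.14). Cdh1 is also made by hepatocytes and bile duct cells, and 5 of 5 measured cholangiocyte markers rose, with a mean from 4.38 to 4.94 in NICD-OE-HEC and from 3.72 to 4.12 in Control. Of these, Cftr lay below the array median in each group and Krt19 in Control, so the sizes of their rises cannot be measured. The part of these cells in the Cdh1 level was not tested. Adipor1, a receptor for the adiponectin that T-cadherin binds, fell by 0.41 (adjusted p = 0.0184), a call lost without Control replicate 3 at -0.36. Adipor2 differed by 0.17 (adjusted p = 0.438). In the LIM homeobox list 1 of 17 rose and 0 fell (2 higher and 1 lower at an unadjusted p under 0.05), and 11 lay below the array median in each group. The riser was Ldb2, a cofactor that bridges LIM proteins (0.81, SE 0.13, adjusted p = 5.25e-04), while Lhx2 differed by -0.46 (adjusted p = 0.111).

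Around thrombomodulin, 3 of 15 genes of the protein C system and coagulation rose and 4 fell, with a median of 0.05. Pros1, which encodes the protein S that assists activated protein C, fell by 0.79 (SE 0.10, adjusted p = 7.17e-05). Tfpi, an inhibitor of the tissue factor pathway, fell by 0.76 (SE 0.09, adjusted p = 2.51e-05) and coagulation factor F8 by 0.63 (SE 0.12). Klf2, a flow-induced factor known to raise Thbd in endothelium, fell by 0.66 (SE 0.15, adjusted p = 0.00888). Klf4, from the same list, differed by -0.01 (adjusted p = 0.988). The part of either factor in the Thbd level was not tested. The thrombin receptor F2r rose by 0.50. Tissue factor (F3) was called as higher, but lay below the array median in each group. Procr, the endothelial protein C receptor, rose by 0.38, a call lost without Control 3 or 6 or NICD-OE-HEC 2, 3, 4 or 5 (0.34 to 0.38 in those fits), or without Control 2 and NICD-OE-HEC 4 together (0.37).

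**Figure D2:**
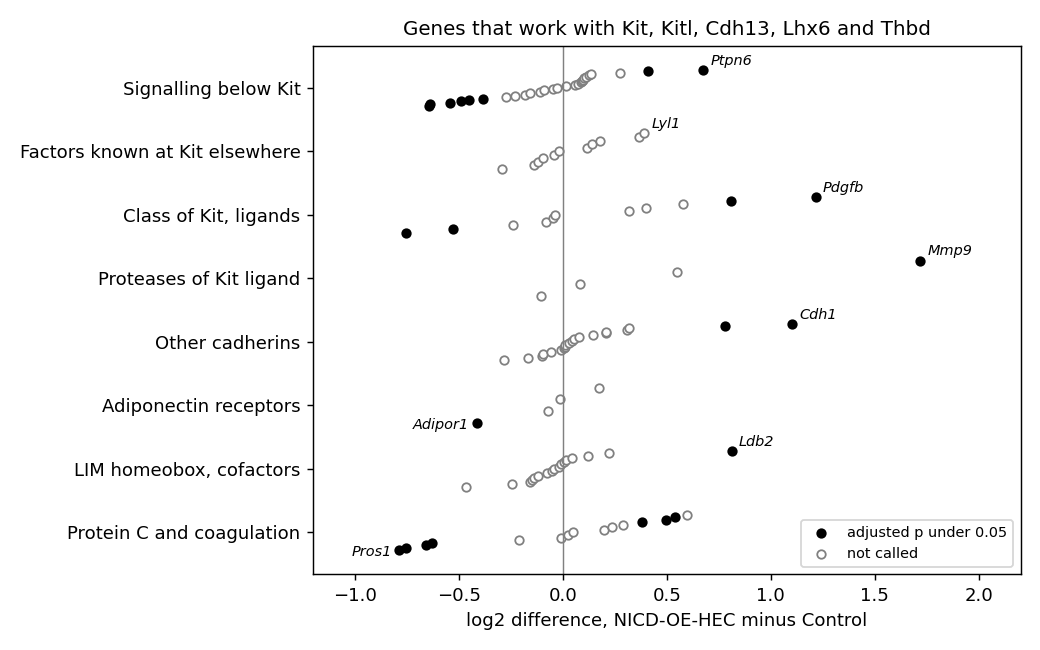
Log2 difference, NICD-OE-HEC minus Control, for each gene of 8 lists of relatives and partners of Kit, Kitl, Cdh13, Lhx6 and Thbd, with filled points for an adjusted p under 0.05 and open points for genes not called. The list below Kit holds 6 falls and 2 rises among 27 genes, the factors known at Kit hold no call, and Mmp9 at 1.72 is the widest difference shown.

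Other landmarks of the lobule were read from the same fit. Of 7 other pericentral landmarks 5 fell and 2 rose, with a median of -0.68, where 5.59% of all probe sets were called as lower and 4.89% as higher. Wnt2, a ligand that sustains hepatocyte zonation, fell by 3.28 with an interval from -3.69 to -2.87, and Rspo3, which enhances Wnt signalling, by 1.12. The galectin Lgals1 fell by 1.51 and Ramp3, a receptor activity modifying protein, by 0.49. The remaining fall was Wnt9b (-0.68). Its call was lost without any of 6 single arrays and without Control 2 and NICD-OE-HEC 4 together. Fabp4, a fatty acid binding protein, rose by 1.20. Selp, the gene of P-selectin, rose by 0.64, and its call was lost without any of 9 single arrays (0.51 to 0.68 in those fits), the exceptions being Control 5 and NICD-OE-HEC 2 and 4, and without Control 2 and NICD-OE-HEC 4 together (0.66). Of 10 periportal landmarks 8 rose and 0 fell, with a median of 0.94, led by Adgrg6 (2.18) and Gja5 (2.03). Jag1, Dll4 and Efnb2 are among these risers and also among the Notch targets counted above, so those lists are not independent.

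**Figure D3:**
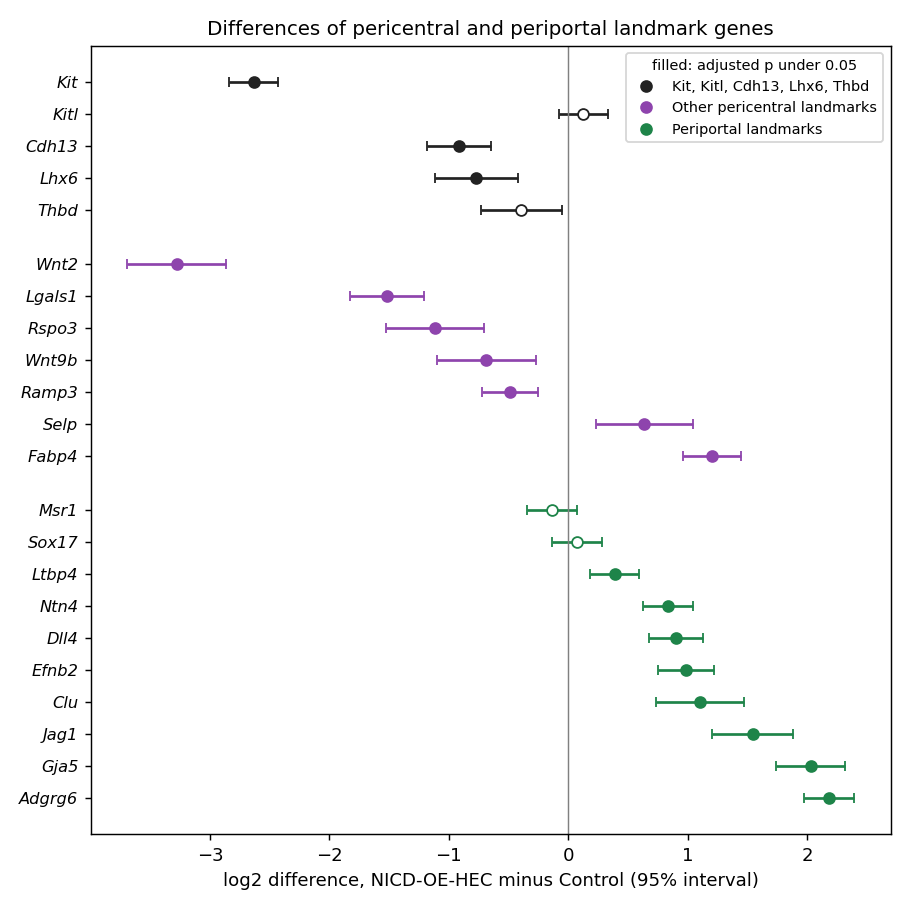
Log2 difference, NICD-OE-HEC minus Control, with its 95% interval for Kit, Kitl, Cdh13, Lhx6 and Thbd (black), 7 other pericentral landmarks (purple) and 10 periportal landmarks (green), filled where the adjusted p was under 0.05. Only Wnt2, at -3.28, has a more negative difference here than Kit, at -2.63, while Cdh13 and Lhx6 lie among the smaller pericentral falls, and the interval of Kitl spans 0.

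Profiles over the 12 arrays were compared by the root mean square (RMS) difference between log2 values, each gene centred on its own mean, among 20620 other named genes. This measure takes in the group difference as well as the array-to-array pattern. Closest to Kit were Col13a1, a transmembrane collagen (RMS 0.27), Plxnc1, a semaphorin receptor (0.27), the adenosine deaminase gene Ada (0.30), Sema3d, a secreted semaphorin (0.32), and Slco2a1, a prostaglandin transporter (0.32). Their differences ran from -2.80 for Ada to -2.27 for Slco2a1. Col13a1 on NICD-OE-HEC replicate 4, at 6.62, lay above the rest of its group, where Kit did not.

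Closest to Cdh13 were the quinone reductase Nqo2 (RMS 0.11), the MAP kinase phosphatase Dusp7 (0.12), the inositol phosphatase Inpp5a (0.12), the copper transport gene Slc31a2 (0.12) and Fam53b (0.12). On all of these, as for Cdh13, NICD-OE-HEC replicate 4 was the lowest array. Their differences ran from -1.01 for Slc31a2 to -0.76 for Dusp7.

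Closest to Lhx6 was Wnt9b, a Wnt ligand of central vein endothelium, with an RMS of 0.22. On the centred scale NICD-OE-HEC replicate 3 was the highest of its group for each gene (0.16 for Lhx6 and 0.18 for Wnt9b) and NICD-OE-HEC replicate 5 the lowest (-0.76 for Lhx6 and -0.86 for Wnt9b). In Control, replicate 5 was the highest for each (0.82 for Lhx6 and 0.94 for Wnt9b). Wnt9b fell by 0.68 (SE 0.19, adjusted p = 0.0339), a call lost without Control 1, 5 or 6 or NICD-OE-HEC 4, 5 or 6 (-0.71 to -0.56 in those fits), or without Control 2 and NICD-OE-HEC 4 together (-0.63). The next were the palmitoyltransferase gene Zdhhc14, the DNA polymerase gene Poll, the Golgi transport gene Gosr2 and the T-box factor Tbx2, each with an RMS of 0.23. Gosr2 was also highest on NICD-OE-HEC replicate 3 and on Control replicate 5 within those groups. Poll and Tbx2 shared the highest Control array, and Zdhhc14 the lowest NICD-OE-HEC array, so these traits were not particular to Wnt9b. Among the 5 genes themselves, Cdh13 and Lhx6 were the closest pair (0.25) and Kit and Kitl the farthest (1.39).

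**Figure D4:**
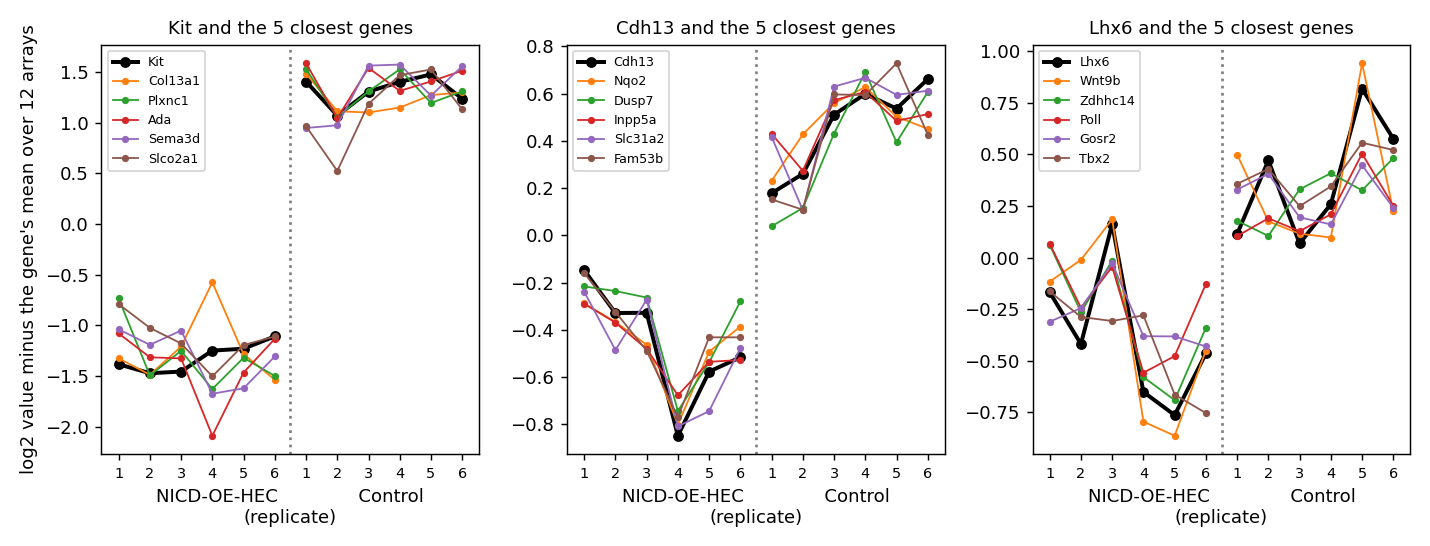
Log2 value minus each gene's mean over 12 arrays (vertical axis) on each NICD-OE-HEC and Control array (horizontal axis, replicate number, whose order has no meaning) for Kit, Cdh13 and Lhx6 in black and the 5 closest genes of each in colour. Wnt9b and Gosr2 share with Lhx6 the highest NICD-OE-HEC array (replicate 3) and the highest Control array (replicate 5).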

How the data were processed

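Expression was measured in 12 samples on 1 array each, and the deposited values are log2 expression values that the authors made with RMA, per the submitters' processing notes. The sources used here do not give the chip definition or genome build. Background correction and quantile normalization were part of RMA, so a shift of most genes one way would not show. Every array had a median of 3.67, and correlations within a group ran from 0.976 to 0.992. The platform annotation gave 1 gene symbol to 24705 of 25428 probe sets, several to 0 and none to 723. Differences are NICD-OE-HEC minus Control, fitted in R 4.3.3 by limma 3.58.1 with lmFit and eBayes on 2 groups without a covariate, and two-sided p-values carry the Benjamini-Hochberg adjustment across every probe set. SE is limma's moderated standard error. Exact permutation tests used all 924 splits of the arrays, with 0.00216 the smallest p they can give. The number of arrays limits the precision. Scan dates and other batches were not given. The labels call the samples biological replicates. The fit was tested on simulated data.

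The 5 genes, the gene lists, the alternatives and the naming rule were chosen with earlier results of these data known. The rule names the 5 genes, Notch targets, up to 4 called genes a list by size (2 where none was called) and the 5 closest profiles of each called gene. Genes added to complete a count were picked with their values in view. Alternatives were median centring, further quantile normalization, robust eBayes with an intensity trend, array weights, leaving out dim probe sets, a replicate block, each array left out, 2 arrays left out together, a log2 threshold of 1 and means over probe sets. Same-numbered arrays of the 2 groups deviated with correlations from -0.10 to 0.22, so the numbers were not taken to pair samples.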

Additional observations from a re-analysis of the deposited data

Results flagged for a closer look

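Of 218 sets of 6 values (a named gene in a group), 10 held a value far from the others by Dixon's test at the 95% level, which chance gives in about 1 in 20 sets. No value of Kit, Kitl, Cdh13, Lhx6 or Thbd was among them. In NICD-OE-HEC, Dok1 was low on replicate 4 (4.60, the others from 5.20), Runx1 high on replicate 1 (4.00, the others up to 3.66), Adgre1 low on replicate 5 (7.14, the others from 8.16) and Col13a1 high on replicate 4 (6.62, the others up to 5.99). In Control, Lyl1 was low on replicate 1 (4.07, the others from 4.49), Mmp8 high on replicate 1 (4.70, the others up to 2.89) and Poll high on replicate 5 (4.70, the others up to 4.44). Control replicate 2 was high for Fabp4 (11.16, the others up to 10.78) and Mcpt4 (1.73, the others up to 1.33) and low for Plcg1 (7.21, the others from 7.68).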

How the results depend on the processing

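Under 22 alternatives Kit, Cdh13 and Lhx6 kept their direction and, except under the size threshold, their calls, and Kitl and Thbd gave no call under any. Some of these could change little, here and in the comparisons below. Median centring and further quantile normalization met arrays already normalized to 1 median. Means over probe sets repeated the fit, as each of the 5 genes had 1 probe set. Leaving out dim probe sets kept every difference as it was. Adding a minimum log2 difference of 1 left 531 called probe sets (330 higher, 201 lower) against 2666, and took the calls of Cdh13 (-0.92) and Lhx6 (-0.77) by its construction. With single arrays left out Kit ran from -2.68 to -2.60, Cdh13 from -0.98 to -0.84, Lhx6 from -0.88 to -0.68, Thbd from -0.46 to -0.31 and Kitl from 0.09 to 0.18, and the count of calls from 2107 to 2970. The adjusted p of Thbd ran from 0.0614 to 0.291 over all alternatives. With the replicate block 2507 probe sets were called, and the adjusted p was 6.15e-07 for Kit, 0.00308 for Cdh13, 0.0323 for Lhx6, 0.0614 for Thbd and 0.555 for Kitl. The block also gave calls as higher to the Kupffer cell markers Adgre1 (adjusted p = 0.00653) and C1qa (0.0175), 2 of the 7 listed, and to Pdgfrb (0.0434), and took those of Plcg1 (0.0519), Wnt9b (0.0726) and Poll (0.0573). In that check 2 of 6 arrays correlated best with their own number. The other 104 named genes gave 2281 comparisons with an alternative, of which 2097 kept direction and call, 160 lost a call, 24 gained one and 0 turned direction. Values carry no detection calls, so a fall of a gene below the array median cannot be measured.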
